A study of Mus musculus with 15 samples.

Results

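Interferon-stimulated genes were followed in whole mouse brain at 2 ages and under 2 feeding regimens. The genes were taken from a list of 47 symbols, known to respond to interferon, and a symbol was kept when its gene had at least 10 reads in total over the 15 mice. All 47 met this minimum, out of 20196 genes that did so in the whole data set, and 44 of them were among the 15864 genes with enough reads for a test. Zbp1, a sensor of viral nucleic acid, and Oas1a and Oas1b, genes of the OAS family, had 47, 83 and 85 reads in total and were not tested.

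All mice were wildtype male C57BL/6J. By the labels, 4 young mice fed ad libitum (young AL, food always present), 3 young mice fed every other day (young EOD, which the labels call IF), 4 old AL mice and 4 old EOD mice were compared, and the ages were 3 and 24 months. The methods of the study place the start of alternate-day feeding in early adulthood for both ages, so that it was brief in the young and near-lifelong in the old mice, and they give the start of the old cohort's examination at a younger age than the labels. The RNA came from the whole brain, so each value is an average over all its cells, and a gene's level cannot tell a change in the number of cells from a change in the RNA of each cell. Levels are given as CPM, a gene's reads scaled to a common library size, with the TMM method correcting for differences in library composition.

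Interferons are secreted proteins that cells release when they sense viral or misplaced nucleic acid. Type I interferons bind the receptor pair Ifnar1 and Ifnar2, and the receptor's kinases then activate a complex that includes Stat2 and Irf9 and binds the interferon-stimulated response element (ISRE) in the promoters of target genes, while interferon gamma acts on a different element (GAS). The target genes encode nucleic acid sensors, proteins that block viral entry, replication or release, GTPases that attack membranes around pathogens, and enzymes that attach or remove ISG15 and ubiquitin. In the brain, microglia are among the cells that respond strongly to interferon.

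Libraries held 5198748 to 13610729 reads on genes, and the file headers name 3 sequencing lanes, of which the third held no young EOD mouse. The study housed its mice in groups, the cages of the sequenced mice are not given in the sources used here, and the tests measure the spread between mice. The third young AL mouse stood apart, with the most reads and yet 17280 genes detected, against 19054 to 20880 in the others, and a median correlation with the other mice of 0.957, against 0.980 to 0.987. Where leaving it out changed a call, a sign or a value by more than 1.5 times, both values are given. Summed over 8 marker genes of microglia, the level was 342 to 387 CPM in young AL and 332 to 364 CPM in young EOD mice. It was 414 to 467 CPM in old AL and 403 to 452 CPM in old EOD mice. At FDR 0.1 (edgeR), 3 of the 8 markers were higher in old mice over both diets, against 2.3% of all genes in either direction. In AL mice 1 of the 8 was (1.09% of all genes), and in EOD mice 1 (0.29%). Of the lymphocyte markers, 6 of T and NK cells had 18 reads in the 7 young and 44 in the 8 old mice, Cd4 had 682 and 606 reads, and 3 of B cells had 10 and 22. The T and NK cell markers did not go the same way. Gzma had 3, 1, 6 and 0 reads in the young AL mice and no read in the other mice, while Cd8a had 0 to 1 reads per young mouse and 0 to 4 per old mouse. The fourth old AL mouse had 1032 CPM of 4 pituitary markers and the third had 21.4 CPM of 4 neutrophil markers. In the mice of the other groups these sums were at most 7.35 and 3.27 CPM. The third old AL mouse also had 14.9 CPM of the pituitary marker Gh, against at most 4.7 CPM in the other groups.

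Promoter sequences of the genes were examined for both elements. RefSeq start sites on GRCm38.p6 gave a window of 250 bases before to 50 bases after the start for 36 of the 47 genes. The letters GAAANNGAAA, the core of an ISRE, were searched on both strands and occurred in the windows of 20 of these 36 genes (55.6%), against 3.99% of all 27025 genes with a window. The letters TTCNNNGAA, the core of a GAS, which reads the same on both strands, occurred in 10 of 36 (27.8%), against 9.55% of all genes. In 6 genes, among them Bst2, Irgm1 and Isg15, ISRE matches overlapped one another, and in Bst2 and Ifitm3 a GAS match overlapped an ISRE match. A match is a description of the sequence and not a measured binding site. Only exact letters were searched, so near matches, such as aaaatcgaaa in Lgals3bp, were not counted. The 250 bases before the start site are shown for 6 genes, with ISRE matches in capitals: Bst2, Gbp2 and Irgm1, which hold a match and rose with age, Isg15 and Ifit3, which hold a match and did not pass the test, and Lgals3bp, which rose and holds none. The regions are chr8:71537473-71537722, minus strand (Bst2), chr3:142620413-142620662, plus strand (Gbp2), chr11:48871421-48871670, minus strand (Irgm1), chr4:156200819-156201068, minus strand (Isg15), chr19:34583279-34583528, plus strand (Ifit3) and chr11:118401960-118402209, minus strand (Lgals3bp), each written 5′ to 3′ on the strand of its gene.
Bst2: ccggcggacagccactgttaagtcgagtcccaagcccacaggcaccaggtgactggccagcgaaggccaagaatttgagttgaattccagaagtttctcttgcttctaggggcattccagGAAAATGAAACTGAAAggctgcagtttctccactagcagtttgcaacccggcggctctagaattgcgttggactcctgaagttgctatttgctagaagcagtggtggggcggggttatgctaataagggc
Gbp2: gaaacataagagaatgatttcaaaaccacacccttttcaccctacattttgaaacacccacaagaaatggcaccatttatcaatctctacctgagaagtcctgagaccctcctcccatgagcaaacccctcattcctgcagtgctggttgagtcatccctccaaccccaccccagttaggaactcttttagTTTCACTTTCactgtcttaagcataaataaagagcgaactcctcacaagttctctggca
Irgm1: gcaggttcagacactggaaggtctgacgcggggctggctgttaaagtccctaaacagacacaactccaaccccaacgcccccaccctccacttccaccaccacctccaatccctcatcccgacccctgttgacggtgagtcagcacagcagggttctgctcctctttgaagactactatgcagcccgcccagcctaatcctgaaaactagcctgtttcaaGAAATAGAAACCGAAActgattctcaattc
Isg15: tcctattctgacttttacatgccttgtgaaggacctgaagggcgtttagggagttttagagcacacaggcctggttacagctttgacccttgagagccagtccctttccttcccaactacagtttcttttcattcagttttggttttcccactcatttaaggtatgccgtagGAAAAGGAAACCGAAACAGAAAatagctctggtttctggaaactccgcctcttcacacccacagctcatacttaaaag
Ifit3: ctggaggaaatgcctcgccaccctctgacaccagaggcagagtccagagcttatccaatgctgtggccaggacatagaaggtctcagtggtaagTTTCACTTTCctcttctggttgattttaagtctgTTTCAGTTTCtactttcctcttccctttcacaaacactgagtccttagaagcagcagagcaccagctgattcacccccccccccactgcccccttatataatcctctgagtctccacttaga
Lgals3bp: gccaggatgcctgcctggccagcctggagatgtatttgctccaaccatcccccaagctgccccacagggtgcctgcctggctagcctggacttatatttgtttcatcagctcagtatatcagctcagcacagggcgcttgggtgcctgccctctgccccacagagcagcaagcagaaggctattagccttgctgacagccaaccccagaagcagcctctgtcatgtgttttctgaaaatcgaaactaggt

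In the promoter of Bst2 the matches began 130 and 124 bases before the start site, in Gbp2 59 bases, in Irgm1 30 and 24 bases, in Isg15 78, 72 and 66 bases, and in Ifit3 156 and 122 bases before it. Of the 8 genes with a window that rose with age over both diets, 7 held an ISRE match, and of the 27 tested genes with a window that did not pass, 12 did (44.4%). GAS matches were in 3 of the 8 and 6 of the 27. The number of matches and the age difference did not go together in each gene. Isg15 had 3 overlapping ISRE matches and an age difference in AL mice of -0.17 on the log2 scale (SE, the standard error, 0.412; 0.08 without the third young AL mouse), and Lgals3bp had no match and an age difference of 0.98 (SE 0.146).

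The question of the first comparison was which of these genes differ between old and young brains. The false discovery rate (FDR) threshold was 0.1 throughout. Between old and young AL mice, 38 of the 44 genes were higher in old mice, and the median log2 fold change was 0.48, against -0.01 over all 15864 genes tested. At FDR 0.1 in edgeR's quasi-likelihood test, 5 of the 44 rose and none fell (11.4%), while 1.09% of all genes passed in either direction. The 5 were Bst2, Ifitm3, Gbp2, Ifi27 and Lgals3bp. Without the third young AL mouse the 5 were again past the threshold and Parp12 was added, 6 genes or 13.6%, against 1.03% of all genes. With the EOD mice taken in (the mean of both old groups against the mean of both young groups), 10 of the 44 rose (22.7%, against 2.3% of all genes), the 5 above with Irgm1, Igtp, Trim30a, Rtp4 and Lgals9, and none fell. Without the third young AL mouse this number was 13 (29.5%, against 2.56%), with Gbp3, Parp12 and Ifi27l2a added. In 20 of the 44 genes (45.5%) every old AL mouse was above every young AL mouse, a pattern that 2.98% of all genes showed.

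**Figure D1:**
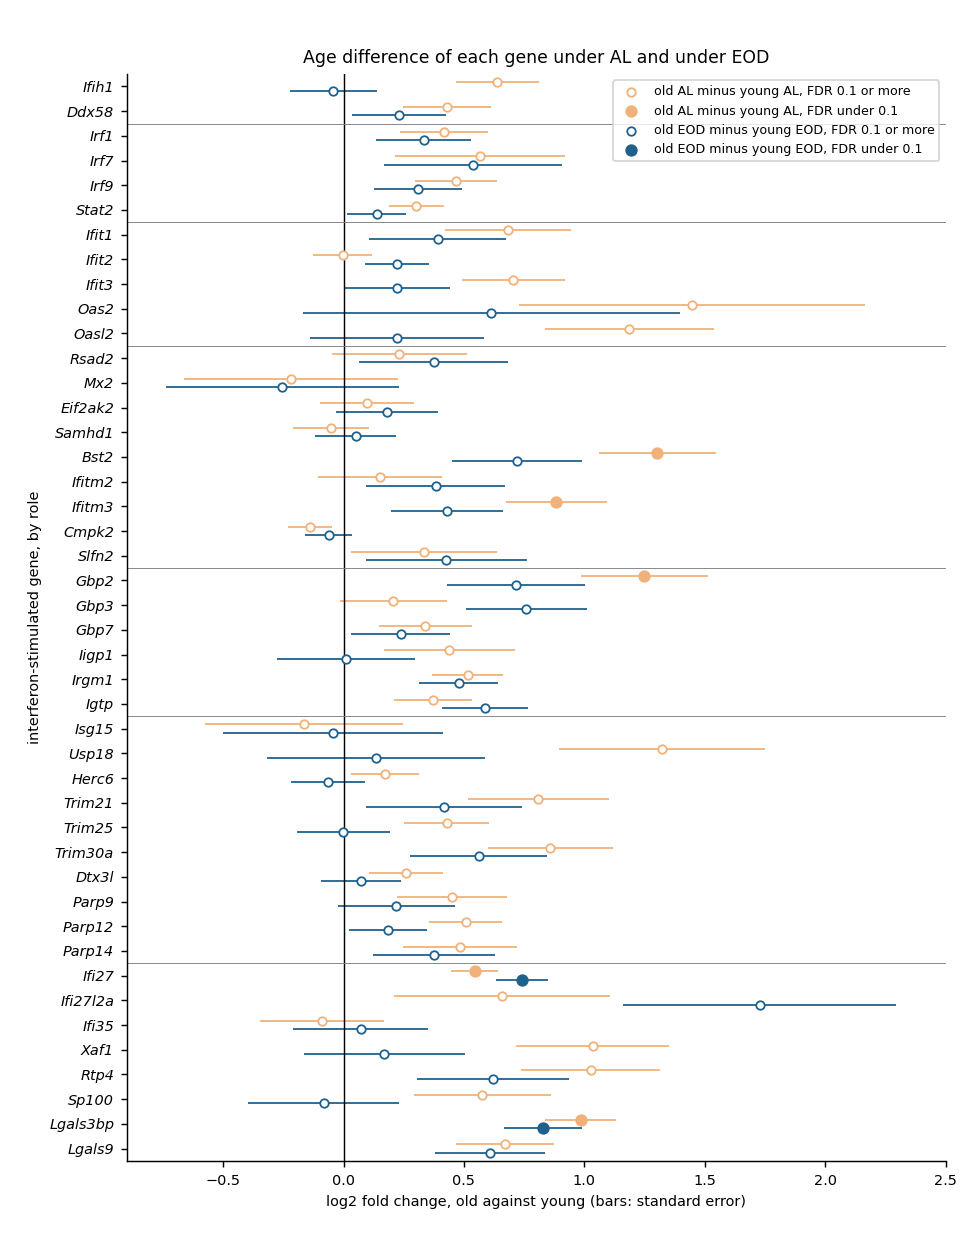
Log2 fold change of old against young mice (x axis, with standard error bars) for each of the 44 tested genes (y axis, grouped by role), under AL (orange) and EOD (blue), filled where FDR was under 0.1 in edgeR. In AL mice 38 of 44 points lie above 0 and 5 are filled, and in EOD mice 37 lie above 0 and 2 are filled.

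Bst2 (tetherin, which holds budding virus particles at the cell surface) lies on chromosome 8, from 71534264 to 71537437 on the minus strand of GRCm38. It had 2.29, 2.38, 1.51 and 2.18 CPM in the young AL mice, 3.29, 2.06 and 1.97 CPM in young EOD, 5.22, 4.33, 5.3 and 5.63 CPM in old AL, and 3.43, 4.89, 4.33 and 3.85 CPM in old EOD mice. Every one of the 8 old mice was above every one of the 7 young mice. The rise in AL mice was from 2.09 ± 0.395 to 5.12 ± 0.556 CPM (SD, n = 4 each), a log2 fold change of 1.30 (SE 0.242, edgeR FDR 0.00735), and in EOD mice the log2 fold change was 0.72 (SE 0.269, edgeR FDR 0.726). Over both diets it was 1.01 (SE 0.181, edgeR FDR 0.00315). Within the lanes the difference in AL mice was 1.09, 1.54 and 1.29 on the log2 scale, and in EOD mice it was 0.06 in lane 1 and 1.20 in lane 2.

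Ifitm3, which hinders the fusion of viruses with the cell's membranes, lies on chromosome 7, from 141009586 to 141010770. It had 7.11, 7.88, 3.17 and 5.86 CPM in young AL, 6.06, 8.42 and 6.57 CPM in young EOD, 11.3, 10.4, 12.3 and 10.1 CPM in old AL, and 10.2, 10.5, 8.84 and 7.89 CPM in old EOD mice. The old AL mice were all above the young AL mice, of which the third was the lowest, and the EOD groups overlapped. The log2 fold change in AL mice was 0.88 (SE 0.211, edgeR FDR 0.0511) and without the third young AL mouse 0.66 (SE 0.164, edgeR FDR 0.0652). In EOD mice it was 0.43 (SE 0.233, edgeR FDR 0.931), and over both diets 0.66 (edgeR FDR 0.036). Leaving out the first, the second or the third old AL mouse ended the call in AL mice (FDR 0.135, 0.102 and 0.188). Within lanes 1, 2 and 3 the difference in AL mice was 0.58, 1.77 and 0.76 on the log2 scale, and the lane 2 value rests on the third young AL mouse.

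Among the interferon-inducible GTPases, Gbp2 (a guanylate-binding protein that coats pathogen-containing vacuoles) rose most. It lies on chromosome 3, from 142620602 to 142638008, and had 4.22, 3.02, 2.19 and 2.68 CPM in young AL, 3.8, 2.41 and 5.39 CPM in young EOD, 10.1, 5.77, 6.43 and 6.05 CPM in old AL, and 6.2, 7.28, 7.64 and 4.71 CPM in old EOD mice. The first old AL mouse was the highest of the old mice, the AL groups did not overlap, and 1 young EOD mouse was above 1 old EOD mouse. The log2 fold change was 1.25 in AL mice (SE 0.264, edgeR FDR 0.0207), 0.72 in EOD mice (SE 0.287, edgeR FDR 0.775) and 0.98 over both diets (edgeR FDR 0.00944). Without the first old AL mouse it was 1.03 in AL mice and no longer passed (edgeR FDR 0.122). Irgm1, an immunity-related GTPase that acts on intracellular membranes, had 14.6, 14.3, 12.8 and 11.3 CPM in young AL, 14.1, 12.9 and 12.4 CPM in young EOD, 22.9, 12.5, 21.2 and 19.2 CPM in old AL, and 18.1, 18.2, 17.9 and 19 CPM in old EOD mice. The second old AL mouse was at the level of the young mice and all other old mice were above them. Over both diets Irgm1 had a log2 fold change of 0.50 (SE 0.11, edgeR FDR 0.021). Igtp, a related GTPase, had 4.94, 6.14, 6.35 and 5.52 CPM in young AL, 5.24, 5.16 and 6.05 CPM in young EOD, 8.08, 6.82, 7 and 7.82 CPM in old AL, and 9.8, 7.97, 7.46 and 7.7 CPM in old EOD mice. All old mice exceeded all young mice, and the log2 fold change over both diets was 0.48 (SE 0.12, edgeR FDR 0.0482), a call lost in 5 of 23 alternative settings. Igtp overlaps Irgm2 on the same strand, so reads of the shared part may be missing from its count. The other 3 GTPases were Gbp3, Gbp7 and Iigp1, whose log2 fold changes in AL mice were 0.21 to 0.44, none past the threshold. Gbp7 had 0.17 instead of 0.34 when the third young AL mouse was left out.

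Ifi27 and Lgals3bp passed under both diets. Ifi27, a small interferon-induced membrane protein, lies on chromosome 12, from 103434211 to 103440239, and had the highest level of the 44 genes per length of transcript, 24.7 CPM per kilobase on average. It had 28.1, 32.5, 30.5 and 26.8 CPM in young AL, 27.1, 27 and 24.6 CPM in young EOD, 41.4, 47.1, 40.5 and 42.9 CPM in old AL, and 47.6, 47.5, 42.6 and 37.9 CPM in old EOD mice. Young and old mice did not overlap under either diet. The log2 fold change was 0.54 in AL mice (SE 0.0967, edgeR FDR 0.00474), 0.74 in EOD mice (SE 0.108, edgeR FDR 0.00126) and 0.64 over both diets (edgeR FDR 1.32e-05). Lgals3bp, a secreted glycoprotein that binds galectins, lies on chromosome 11, from 118392751 to 118402092. It had 17.1, 13, 17.1 and 14.7 CPM in young AL, 19.2, 14.6 and 13.8 CPM in young EOD, 33.6, 28.5, 33.7 and 27.2 CPM in old AL, and 30.9, 35.6, 24.1 and 23.4 CPM in old EOD mice. Every old mouse was above every young mouse, and the mean in AL mice was higher with age, from 15.5 ± 1.99 to 30.7 ± 3.37 CPM (SD, n = 4 each). The log2 fold change was 0.98 in AL mice (SE 0.146, edgeR FDR 0.000687), 0.83 in EOD mice (SE 0.162, edgeR FDR 0.0275) and 0.91 over both diets (edgeR FDR 3.17e-05).

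Trim30a, Rtp4 and Lgals9 passed, like Irgm1 and Igtp, in the comparison over both diets and not under either diet alone. Trim30a, a ubiquitin ligase of the TRIM family, had 4.1, 2.84, 1.59 and 3.43 CPM in young AL, 3.9, 3.09 and 3.15 CPM in young EOD, 6.09, 3.94, 5.86 and 5.46 CPM in old AL, and 4.52, 4.78, 6.54 and 4.33 CPM in old EOD mice. The EOD groups did not overlap, the AL groups did by 1 mouse, and the log2 fold change was 0.71 (SE 0.193, edgeR FDR 0.072), a call that was lost in 13 of 23 alternative settings. Rtp4, a chaperone of membrane receptors, had 2.53, 2.57, 1.51 and 2.43 CPM in young AL, 3.8, 1.72 and 2.23 CPM in young EOD, 4.97, 3.54, 4.54 and 5.13 CPM in old AL, and 5.78, 3.87, 2.76 and 3.94 CPM in old EOD mice. The first young EOD mouse lay within the range of the old mice, and the log2 fold change was 0.82 (SE 0.213, edgeR FDR 0.0583), a call lost in 6 of 23 alternative settings. Lgals9, a galectin that dampens immune cells, had 6.03, 8.06, 4.15 and 5.69 CPM in young AL, 6.47, 4.13 and 5.39 CPM in young EOD, 10.3, 8.79, 11.5 and 7.73 CPM in old AL, and 9.05, 6.71, 9.02 and 8.18 CPM in old EOD mice. Its young and old ranges overlapped slightly in AL mice and not in EOD mice, and the log2 fold change was 0.64 (SE 0.152, edgeR FDR 0.0349). Parp12, an ADP-ribosyltransferase, had 9.52, 7.24, 10.8 and 8.62 CPM in young AL, 12.7, 11.5 and 9.73 CPM in young EOD, 12.8, 12.3, 12.5 and 13.7 CPM in old AL, and 11.1, 14.5, 11.6 and 14.7 CPM in old EOD mice. All old AL mice were above all young AL mice, among which the third young AL mouse was the highest. Its log2 fold change in AL mice was 0.51 (SE 0.15, edgeR FDR 0.17), and 0.62 without that mouse (SE 0.15, edgeR FDR 0.0578).

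**Figure D2:**
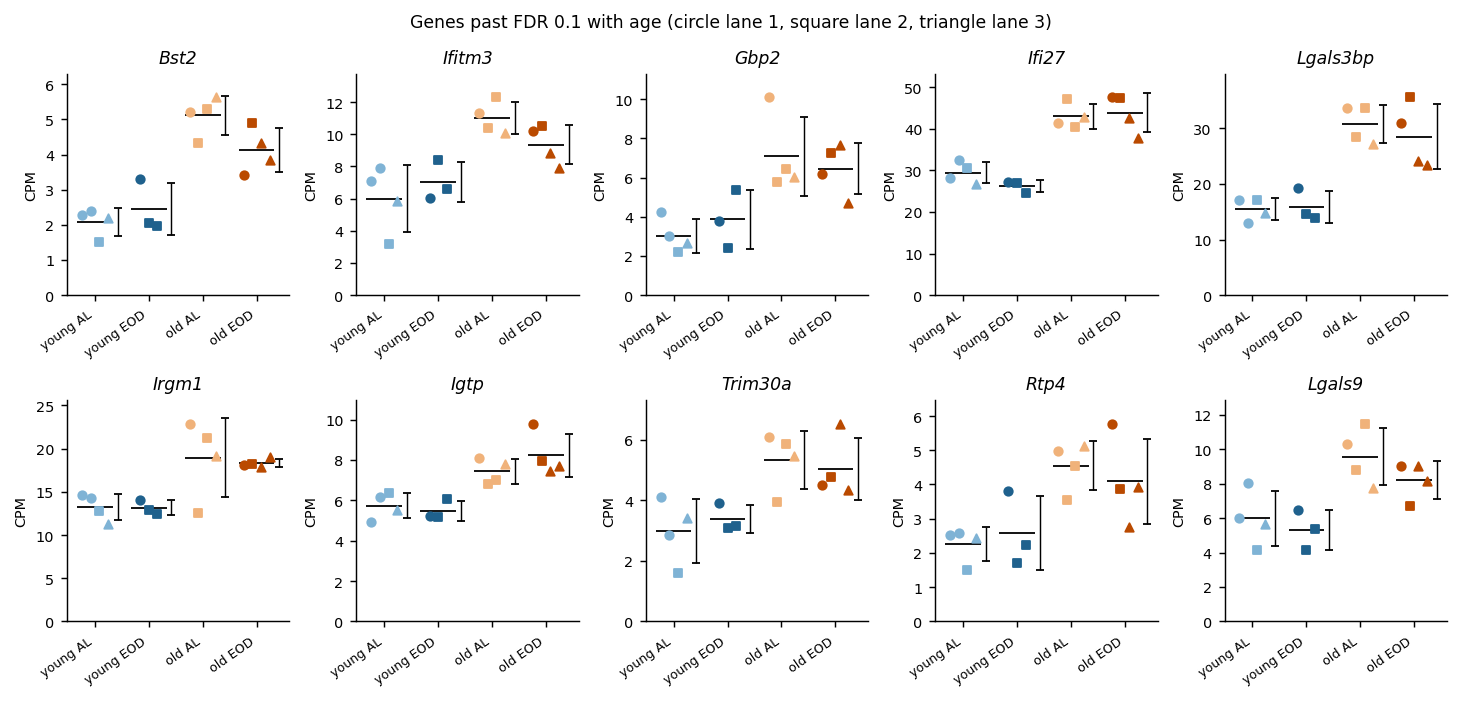
CPM (y axis, from 0) of the 10 genes past FDR 0.1 with age in any of the 3 age comparisons, one point per mouse by group, with the mean (line) and SD (bar) and the lane given by the shape of the point. The old mice lie above all young mice in Bst2, Igtp, Ifi27 and Lgals3bp.

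Among the other genes, both tested sensors had every old AL mouse above every young AL mouse: Ifih1 (MDA5) had a log2 fold change of 0.64 (edgeR FDR 0.108, and 0.49 without the third young AL mouse) and Ddx58 (RIG-I) one of 0.43 (edgeR FDR 0.452). The 4 transcription factors Irf1, Irf7, Irf9 and Stat2 had log2 fold changes of 0.30 to 0.57 in AL mice and 0.14 to 0.54 in EOD mice, and none passed. Of the 5 tested genes of the IFIT and OAS families, which bind or respond to foreign RNA, Oas2, Oasl2, Ifit3 and Ifit1 had log2 fold changes of 1.45, 1.19, 0.70 and 0.68 in AL mice (edgeR FDR 0.536, 0.17, 0.188 and 0.366), and Ifit2 one of 0.00 (SE 0.123), or 0.08 without the third young AL mouse. Oas2 was at or under 2.24 CPM in every mouse, the third young AL mouse had no read of it, and without that mouse the value was 0.99 (SE 0.615). That mouse also had 0.604 CPM of Oasl2, against 3.93 to 4.76 CPM in the other young AL mice, and without it the log2 fold change of Oasl2 was 0.81 (edgeR FDR 0.122).

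Usp18, which removes ISG15 from proteins and limits interferon signalling, had a log2 fold change of 1.32 in AL mice (SE 0.428, edgeR FDR 0.244) and 0.13 in EOD mice. Xaf1, a cell death regulator, had 1.03 and 0.17. Log2 fold changes in AL mice varied between the genes, and those of Bst2, Usp18, Oasl2, Ifit3 and Ifit1 exceeded the following 5. The value was -0.17 for Isg15, the ubiquitin-like modifier, 0.23 for Rsad2 (viperin) and -0.22 for Mx2. For Eif2ak2 (the RNA-dependent kinase PKR) it was 0.10, and for Samhd1, which depletes nucleotides, -0.05. The standard errors of the 5 were, in this order, 0.412, 0.279, 0.445, 0.197 and 0.157. The values of Isg15 and Mx2 were thus the least precise of the 5. Without the third young AL mouse the values were 0.08 for Isg15, 0.33 for Rsad2, 0.00 for Mx2, 0.22 for Eif2ak2 and -0.22 for Samhd1, so that the sign of Isg15 turned and the difference in Mx2 was gone. Cmpk2, a mitochondrial nucleotide kinase and behind only Ifi27 and Ifitm3 by level per length of transcript (11.5 CPM per kilobase, against 12.4 for Ifitm3), had 40.1, 39, 40 and 34.2 CPM in young AL, 39.4, 35.2 and 39.3 CPM in young EOD, 36.2, 35, 31.8 and 35.8 CPM in old AL, and 35.4, 34.4, 40.9 and 35.1 CPM in old EOD mice. The groups overlapped, and its log2 fold change in AL mice was -0.14 (SE 0.0902, edgeR FDR 0.664).

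Among the ubiquitin ligases and ADP-ribosyltransferases, Trim21, a cytosolic antibody receptor, had 3.13, 1.74, 1.89 and 2.18 CPM in young AL, 3.8, 1.38 and 1.97 CPM in young EOD, 3.85, 3.54, 4.92 and 3.36 CPM in old AL, and 3.27, 3.53, 3.87 and 2.6 CPM in old EOD mice. The AL groups were separate, the first young EOD mouse was among the old mice, and the log2 value in AL mice was 0.81 (SE 0.293, edgeR FDR 0.342). Trim25, a ligase that acts on RIG-I, showed 0.43 in AL and 0.00 in EOD mice. The partners Dtx3l and Parp9 showed 0.26 and 0.45 in AL mice, Parp14 showed 0.48, and Herc6, which attaches ISG15, showed 0.17, none past the threshold. Ifi27l2a, a relative of Ifi27, had 1.33, 0.55, 1.21 and 0.837 CPM in young AL, 0.821, 0 and 0.394 CPM in young EOD, 2.11, 1.57, 1.32 and 1.18 CPM in old AL, and 1.42, 2.28, 1.38 and 1.15 CPM in old EOD mice. These are levels of a few reads per mouse, the EOD groups were separate, and its difference over both diets was 1.19 on the log2 scale (SE 0.362, edgeR FDR 0.132). Slfn2 and Ifitm2 differed with age in AL mice by 0.34 and 0.15 on the log2 scale (SE 0.302 and 0.258), and Ifi35 by -0.09 (SE 0.257). The values of Slfn2 and Ifitm2 were 0.22 and 0.43 without the third young AL mouse, the highest of its group in Ifitm2.

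Gbp3 was the GTPase with the largest age difference in EOD mice. It had 6.27, 5.86, 8.54 and 4.35 CPM in young AL, 5.96, 4.64 and 3.42 CPM in young EOD, 9.45, 5.64, 7.94 and 6.14 CPM in old AL, and 7.54, 9.67, 7.46 and 7.41 CPM in old EOD mice. The EOD groups were separate and the AL groups overlapped, with the third young AL mouse above all but 1 old AL mouse. The log2 value was 0.76 in EOD mice (SE 0.252, edgeR FDR 0.591) and 0.21 in AL mice (SE 0.223, edgeR FDR 0.822), or 0.41 in AL mice without the third young AL mouse. Usp18 had 2.29, 0.55, 1.06 and 1.34 CPM in young AL, 3.8, 1.89 and 0.526 CPM in young EOD, 3.61, 2.89, 3.97 and 2.52 CPM in old AL, and 2.6, 2.28, 2.03 and 2.5 CPM in old EOD mice. The AL groups were separate, while the first young EOD mouse was above all old EOD mice. Xaf1 had 3.49, 3.39, 1.36 and 2.51 CPM in young AL, 5.54, 3.27 and 3.81 CPM in young EOD, 8.95, 5.12, 3.4 and 4.03 CPM in old AL, and 4.27, 4.89, 6.17 and 3.94 CPM in old EOD mice. The first old AL mouse had the highest level of Xaf1 of all 15 mice, and all groups overlapped their neighbours in age.

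In EOD mice the age comparison gave fewer calls. Of the 44 genes, 37 were higher in old than in young EOD mice, with a median log2 fold change of 0.27, and 2 passed (4.55%, Ifi27 and Lgals3bp), against 0.29% of all genes. Without the third young AL mouse these 2 passed again, against 0.484% of all genes. In 10 of the 44 genes (22.7%, against 4.75% of all genes) every old EOD mouse was above every young EOD mouse, and in 4, Bst2, Igtp, Ifi27 and Lgals3bp (9.09%, against 0.75% of all genes), all 8 old mice were above all 7 young mice. Leaving out the second or the third young EOD mouse or the first or second old EOD mouse left Ifi27 as the only gene past the threshold in EOD mice. The difference between the 2 age effects was tested as an interaction, and 0 of the 44 genes and 0% of all genes passed FDR 0.1 in edgeR. The smaller number of calls in EOD mice is therefore not shown to be a smaller age difference.

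The mice differed in the level of the genes as a group. The mean over the 44 genes of log2 CPM minus each gene's mean over all mice was -0.29 ± 0.14 (SD, n = 4) in young AL, -0.16 ± 0.269 (SD, n = 3) in young EOD, 0.21 ± 0.128 in old AL mice (SD, n = 4), and 0.20 ± 0.125 in the old EOD group (SD, n = 4). The young EOD mean joins a mouse at 0.15, the first, with 2 at -0.30 and -0.33. The first young EOD mouse was the highest of its group in 33 of the 44 genes (75%), while it was highest in 31.4% of all genes tested. It had 15.5 CPM of Ifit3, against 7.57 and 7.23 CPM in the other young EOD mice, and 9.24 CPM of Ifit1, against 3.09 and 3.81 CPM. With this mouse left out, an alternative added after its values had been seen, the median age difference of the 44 genes under EOD was 0.54 instead of 0.27. Among old mice the first old AL mouse (0.38) and the second old EOD mouse (0.37) had the highest means, and each was the highest of its group in 20 of the 44 genes (45.5%, against 28.6% and 27.3% of all genes). The third young AL mouse had the lowest mean (-0.45), and its mean over all genes tested was -0.099. It was the lowest of its group in 17 of the 44 genes (38.6%, against 34.5% of all genes). In 10 it was the highest of its group (22.7%, against 32.9% of all genes), such as Ifitm2 and Isg15 with 6.35 and 3.78 CPM.

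**Figure D3:**
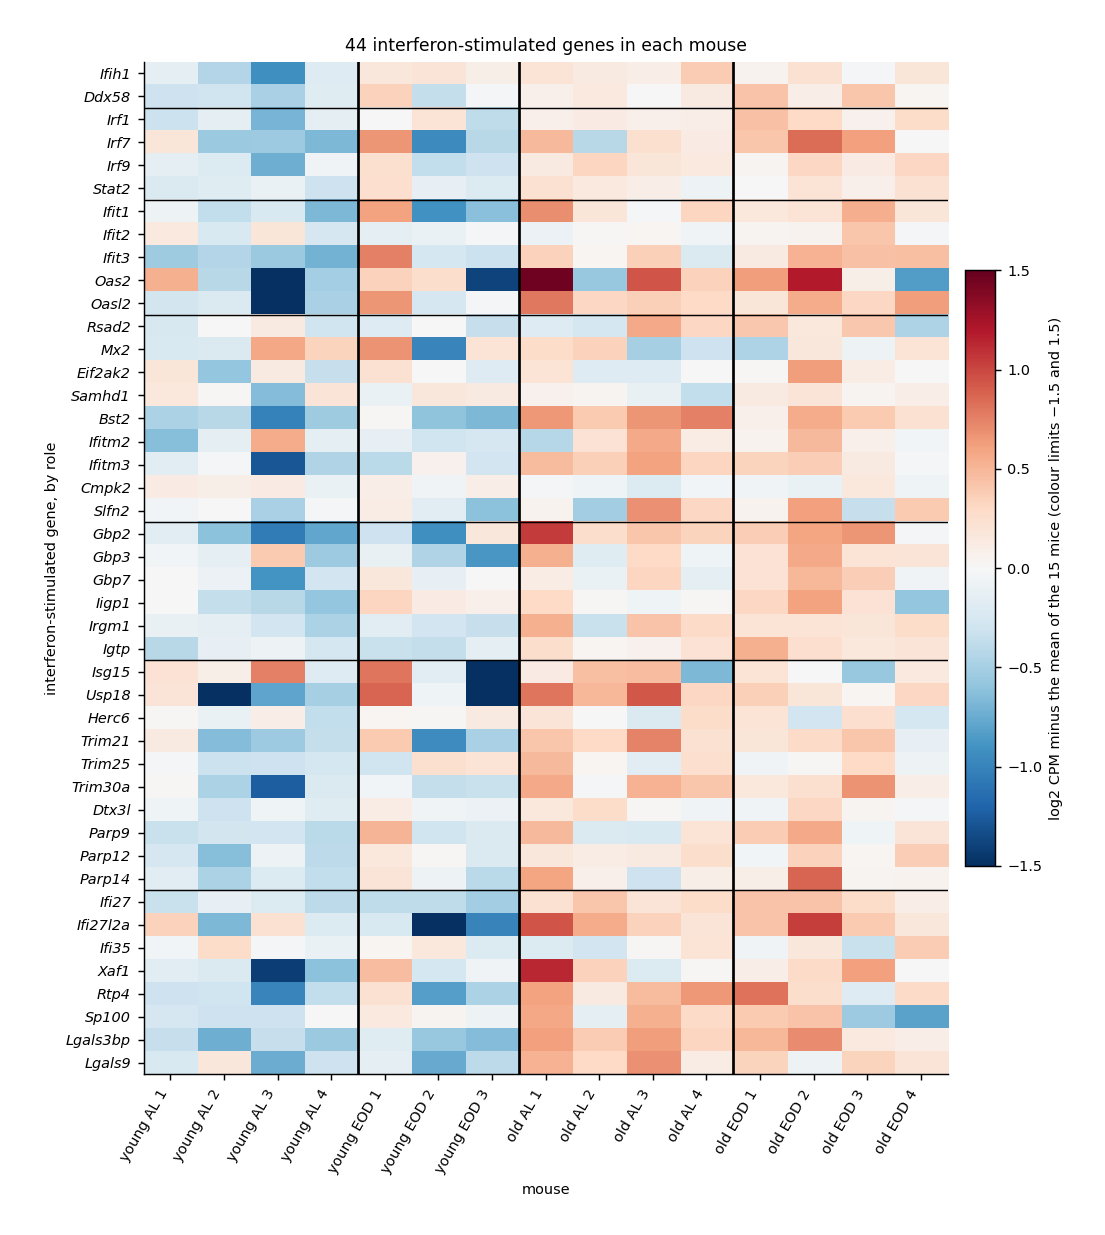
Log2 CPM minus the mean of the 15 mice (colour, limits −1.5 and 1.5) for the 44 tested genes (rows, by role) in each mouse (columns, by group). The first young EOD mouse is the highest of its group in 33 of the 44 genes.

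**Figure D4:**
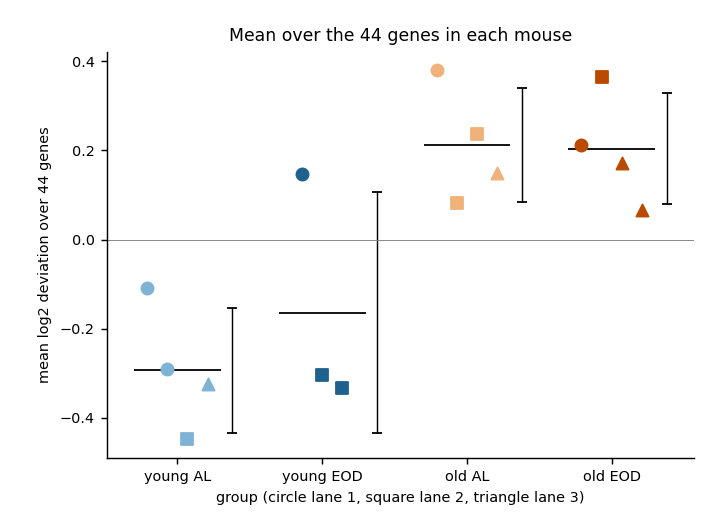
Mean log2 deviation over the 44 genes (y axis) for each mouse by group, with group mean (line) and SD (bar) and the lane given by the shape of the point. The old mice lie between 0.07 and 0.38 and the first young EOD mouse at 0.15.

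The second question was whether the feeding regimen moved these genes. In young mice 0 of 44 genes passed in edgeR's test, as did 0% of all genes, and DESeq2 also called 0 of the 44. At an unadjusted p under 0.05, 3 of the 44 (6.82%, against 4.14% of all genes) differed, Ifih1, Ifit3 and Oasl2, all higher in EOD mice. The median difference over the 44 genes was 0.21 on the log2 scale, 0.14 without the third young AL mouse and 0.00 without the first young EOD mouse. Ifit3 had 6.27, 6.69, 6.12 and 5.52 CPM in young AL and 15.5, 7.57 and 7.23 CPM in young EOD mice, and 11.7, 9.32, 11.7 and 7.82 CPM in old AL and 10.1, 13.2, 12.4 and 12.6 CPM in old EOD mice. Its log2 fold change between young EOD and young AL mice was 0.75 (SE 0.228, edgeR FDR 0.996), and 0.27 without the first young EOD mouse. Ifih1 had 6.99, 5.68, 4 and 6.78 CPM in young AL, 8.73, 8.94 and 8.28 CPM in young EOD, 8.95, 8.53, 8.32 and 10.2 CPM in old AL, and 8.04, 9.1, 7.64 and 8.85 CPM in old EOD mice. The 3 young EOD mice were in the range of the old mice and above all young AL mice, and the log2 fold change was 0.57 (SE 0.186, edgeR FDR 0.996), and 0.42 without the third young AL mouse. In 3 of 44 genes (6.82%, against 2.4% of all genes), Ifih1, Ifit3 and Iigp1, every young EOD mouse was above every young AL mouse. Within lane 1, 31 of the 44 genes were higher in EOD, and within lane 2, which holds the third young AL mouse and no other of its group, 21 were. The share of all genes was not counted within lanes.

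In old mice the 44 genes were balanced, with 23 higher in EOD than in AL mice, a median log2 fold change of 0.00, 0 genes past FDR 0.1, as for 0% of all genes, and 0 at an unadjusted p under 0.05 (2.58% of all genes, edgeR). In 0 of the 44 was every old EOD mouse below every old AL mouse (1.36% of all genes). Within lanes 1, 2 and 3, 14, 36 and 20 of the 44 genes were higher in EOD mice, and the share of all genes was not counted there. DESeq2 called 0 of the 44 too. The lowest in rank of p were Bst2 (log2 fold change -0.32, SE 0.228) and Sp100, a component of nuclear bodies (-0.39, SE 0.283), both at an edgeR FDR of 0.9999. Sp100 had 2.77, 2.66, 2.64 and 3.35 CPM in young AL, 3.7, 3.44 and 3.15 CPM in young EOD, 5.1, 3.02, 4.92 and 4.12 CPM in old AL, and 4.44, 4.55, 2.21 and 1.83 CPM in old EOD mice. Its old EOD mice fell into 2 near 4.5 CPM and 2 below all young mice. For the interaction, 1 gene of 44 had an unadjusted p under 0.05 (2.27%, against 2.28% of all genes), Ifih1 (log2 value -0.68, SE 0.25, edgeR FDR 0.9998). The next in rank was Oasl2 (-0.96, SE 0.503, edgeR FDR 0.9998), which had 4.58, 4.76, 0.604 and 3.93 CPM in young AL, 8.93, 4.64 and 5.52 CPM in young EOD, 9.82, 6.95, 7.19 and 6.89 CPM in old AL, and 6.37, 8.31, 7 and 8.75 CPM in old EOD mice. The third young AL mouse and the first young EOD mouse were the extremes of the young mice in Oasl2, and the interaction was -0.59 without the former and -0.61 without the latter. The median interaction over the 44 genes was -0.16, and 0.02 without the first young EOD mouse.

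**Figure D5:**
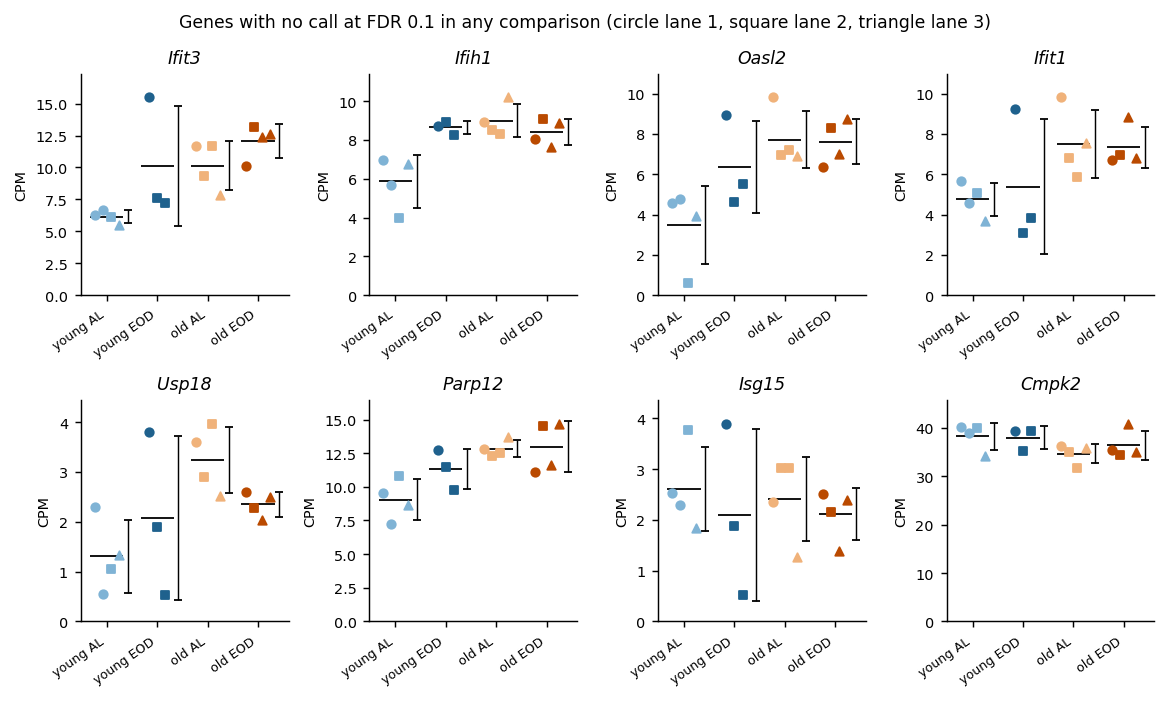
CPM (y axis, from 0) of 8 genes with no call at FDR 0.1 in any comparison of the main edgeR fit of all 15 mice. One point is shown per mouse by group, with the mean (line) and SD (bar) and the lane given by the shape of the point. Some of them passed in other settings, such as Ifih1 and Oasl2 with age in AL mice in DESeq2. The first young EOD mouse has 15.5 CPM of Ifit3 and 9.24 CPM of Ifit1, above the other young mice.

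Upstream of these genes, the ligands were near or below detection. Of 21 interferon genes, Ifnb1 and Ifng among them, 20 had no read in any mouse and the other, Ifnz, had 2 reads in 1 young EOD mouse. With 142760196 reads in all, a count of 0 allows up to 3 reads, or 0.021 CPM over all mice, which covers counting error only. Of the 31 tested genes that carry or regulate the signal, 1 rose with age in AL mice (3.23%, against 1.09% of all genes), Irf8, an interferon regulatory factor that also directs the development of microglia and macrophages. Irf8 had 3.01, 2.84, 2.57 and 3.6 CPM in young AL, 2.98, 3.27 and 3.29 CPM in young EOD, 6.59, 6.43, 8.7 and 6.72 CPM in old AL, and 4.61, 3.41, 5.43 and 3.85 CPM in old EOD mice. The old AL mice were all above both the young mice and the old EOD mice. The age difference on the log2 scale was 1.23 in AL mice (SE 0.207, edgeR FDR 0.00282) and 0.46 in EOD mice (SE 0.236, edgeR FDR 0.917). Between old EOD and old AL mice it was -0.70 (SE 0.2, edgeR FDR 0.9999), and its interaction was -0.77 (edgeR FDR 0.9998).

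Over both diets 3 of the 31 rose (9.68%, against 2.3% of all genes): Irf8, Stat3, a transducer of cytokine signals (log2 fold change 0.22, edgeR FDR 0.0692), and Ptpn6, a phosphatase that damps receptor signalling (0.68, edgeR FDR 0.0477). The call was lost in 12 of 23 alternative settings for Stat3 and in 5 of 23 for Ptpn6. Stat3 had 60.5, 55.2, 57 and 65.4 CPM in young AL, 55.5, 61.9 and 56.4 CPM in young EOD, 71.1, 74.8, 70.2 and 62.4 CPM in old AL, and 69.2, 69.5, 62.6 and 69.2 CPM in old EOD mice. Ptpn6 had 2.29, 2.84, 4.76 and 3.35 CPM in young AL, 3.7, 4.3 and 3.15 CPM in young EOD, 4.73, 6.43, 5.11 and 6.64 CPM in old AL, and 6.53, 4.78, 5.06 and 5.68 CPM in old EOD mice. For both genes the EOD groups were separate and 1 mouse made the AL groups overlap. Without the third young AL mouse Ptpn6 also passed in AL mice (log2 fold change 1.02, SE 0.214, edgeR FDR 0.02). The receptor chains Ifnar1 and Ifnar2 had log2 fold changes in AL mice of 0.08 (SE 0.0793, edgeR FDR 0.812) and 0.32 (SE 0.157, edgeR FDR 0.533).

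The summed level of the 8 microglial markers was higher in every old mouse than in every young mouse, and its part in the age difference was not tested. Of 5 astrocyte markers 1 rose in each of the 3 age comparisons. Their summed level was 1385 to 1535 CPM in young AL and 1608 to 1794 CPM in old AL mice. In young and old EOD mice it was 1431 to 1614 and 1590 to 1733 CPM, which overlap. Gfap had 152 to 174 CPM in young AL and 381 to 403 CPM in old AL mice, and the AL ranges of the other astrocyte markers overlapped with age. Aldh1l1 and Gja1 were lower in every old EOD mouse than in every young EOD mouse. Of 4 oligodendrocyte markers 1 rose in AL mice and over both diets. Their summed levels were 4639 to 5467 CPM in young AL and 5454 to 6112 CPM in old AL mice. Of these markers only Mbp was higher in every old AL mouse than in every young AL mouse (1510 to 2010 and 2060 to 2730 CPM). The part of either list in the age difference was not tested. Of the 4 border macrophage markers 0 passed with age in edgeR, with summed levels of 12.1 to 18.7 CPM in young AL and 7.73 to 15.1 CPM in old AL mice, and the 4 endothelial markers had 112 to 141 CPM and 123 to 140 CPM. Within lane 3, which compares 1 old with 1 young AL mouse, 41 of the 44 genes were higher in the old mouse (median 0.50 on the log2 scale). In AL mice of lane 1, 37 genes (0.57) were higher with age, and in lane 2, 35 genes (0.49). For all genes the share was not counted within lanes. In EOD mice 23 genes (median 0.05) were higher with age in lane 1, whose only young EOD mouse is the first, and 41 (median 0.57) in lane 2.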

How the data were processed

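Whole-brain RNA of 15 mice was sequenced as 50 bp single-end reads. The authors aligned the reads with STAR to GRCm38, assigned them to the genes of Ensembl release 79 by featureCounts 1.5.0-p1 (minimum mapping quality 5, primary alignments, reverse strand) and deposited raw counts per gene, 43629 genes in each file, without normalization. Symbols were matched for 42462 of them. Reads that fit near-identical genes were dropped, so that members of the Ifit3, Oas1, Gbp and Trim30 families are uncertain, and Gbp3 and Gbp7 overlap Gbp2b, Irf9 overlaps Rnf31 and Igtp overlaps Irgm2 on the same strand. The genes, lists and tests were chosen with earlier results of these data known.

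The test was that of edgeR 4.0.16, run in R 4.3.3 (filterByExpr, TMM, quasi-likelihood test, 1 fit of the 4 group means over all 15 mice, Benjamini-Hochberg adjustment over 15864 genes, FDR under 0.1). The standard error was obtained from the log2 fold change and the F statistic (size over root F), and the common biological coefficient of variation was 0.119. Log2 CPM used a prior count of 2. Values in every mouse are given for genes called in any age comparison (or with age in AL mice without the third young AL mouse), the 3 with the highest CPM per kilobase and the 2 with the smallest p in each of the diet and interaction comparisons. Gbp3, Trim21, Usp18, Xaf1 and Ifi27l2a are also shown by mouse, and were chosen after their values had been seen. The step was tested on simulated counts, in which 44%, 78%, 96% and 94% of 50 genes changed 1.5-, 2-, 3- and 4-fold between old and young AL mice were recovered. Alternatives were RLE size factors, every gene with at least 1 count, at least 10 counts in every mouse, DESeq2 1.42.0, FDR 0.05, replicate number as a block, lane as a covariate and leaving out each mouse. DESeq2 without the third young AL mouse and the medians without single young mice were added after the values had been seen. Promoter windows came from RefSeq.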

Additional observations from a re-analysis of the deposited data

Results flagged for a closer look

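In 60 groups of 4 mice examined over the named genes and their mean, 6 held a mouse far from the other 3, where chance alone gives about 1 group in 20. Cmpk2 was 40.9 CPM in the third old EOD mouse, against 34.4 to 35.4 CPM in the others of its group. Gbp2 was 10.1 CPM in the first old AL mouse, against 5.77 to 6.43 CPM. Oasl2 was 9.82 CPM in the same mouse, against 6.89 to 7.19 CPM. Irf8 was 8.7 CPM in the third old AL mouse, against 6.43 to 6.72 CPM. Rtp4 was 1.51 CPM in the third young AL mouse, against 2.43 to 2.57 CPM. Stat3 was 62.6 CPM in the third old EOD mouse, against 69.2 to 69.5 CPM. Groups of 3 were not examined, so the first young EOD mouse is not among these.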

How the results depend on the processing

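Of the 44 tested genes, 5 rose in AL mice, beside 173 of all genes. This number was 14 with no filter beyond 1 count (444 of all genes) and 9 with DESeq2 (245 of all genes). All 47 genes entered those fits. With the lane as a covariate it was 9 (159 of all genes), and 3 to 6 when 1 mouse at a time was left out. DESeq2 added Ifih1, Irgm1, Oasl2 and Rtp4, and the lane covariate added Lgals9, Oasl2, Rtp4 and Xaf1. The lowest, 3, came without the first old AL mouse, where Gbp2 and Ifitm3 were lost, and Bst2, Ifi27 and Lgals3bp passed in every setting tried. In EOD mice 1 or 2 genes passed when single mice were left out, with Ifi27 in every setting. Over both diets the number was 10, and 6 to 13 without single mice, the lowest without the second young EOD mouse. With the replicate block the numbers were 5 in AL mice, 2 in EOD mice and 8 over both diets, where Igtp and Trim30a were lost. Of all genes 155, 35 and 250 passed with that block. Same-numbered mice did not deviate together (mean correlation across genes -0.0266, range -0.113 to 0.113 over 21 pairs, against 0.00874 for other pairs), so the numbers are not shown to pair the mice. The pathway genes called with age in AL mice were 1 or 2 without single mice, 2 without the third young AL mouse and 2 with DESeq2 without it. Over both diets they were 1 with the replicate block and 1 with the lane as a covariate, and 1 to 3 without single mice. Over all genes, 173 passed with age in AL mice, 444 with no filter beyond 1 count and 102 to 221 without single mice, 46 passed in EOD mice (100 with no filter beyond 1 count, 70 with DESeq2, 76 without the third young AL mouse, 19 without the first young EOD mouse), and 365 over both diets (653 with no filter beyond 1 count, 237 with the lane as a covariate and 216 without the second young EOD mouse). For diet in young mice, diet in old mice and the interaction, no interferon-stimulated gene passed in any of these settings, while 26, 27 and 26 of all genes did with no filter beyond 1 count. Leaving out the first young EOD mouse moved the median age difference under EOD to 0.54, that of diet in the young to 0.00 and that of the interaction to 0.02. The sign of the interaction median thus turned, while none of the genes chosen by the naming rule changed direction in the comparison that chose it. Outside that rule, Isg15 and Ifit2 turned in AL mice without the third young AL mouse (0.08 each). Low levels limit precision: Oas2, with 0 to 18 reads per mouse, and Usp18, with 4 to 37, had standard errors of 0.718 and 0.428 in AL mice.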

Other observations

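Near relatives of these genes, chosen by family name after the genes' own values had been seen, included 17 tested genes, with a median log2 fold change in AL mice of 0.17. Of these, 0 passed with age in AL mice in edgeR (1.09% of all genes did), and DESeq2 called 1, beside 245 of all genes. At an unadjusted p under 0.05 there were 6, for which the share of all genes was not counted. Over both diets 2 rose (11.8%, against 2.3% of all genes, edgeR FDR under 0.1), both galectins. Lgals3, a galectin of activated microglia and macrophages, had 0.482, 0.733, 0.906 and 0.753 CPM in young AL, 0.103, 0.86 and 0.657 CPM in young EOD, 1.74, 1.84, 2.46 and 2.35 CPM in old AL, and 1.42, 2.16, 1.38 and 1.64 CPM in old EOD mice, so that all old mice were above all young mice. Its log2 fold change over both diets was 1.60 (SE 0.319, edgeR FDR 0.00949). Lgals1 had a log2 fold change of 0.39 over both diets (SE 0.112, edgeR FDR 0.0946). Ifit3b, a close copy of Ifit3, had a log2 fold change between young EOD and young AL mice of 0.83 (SE 0.318, edgeR FDR 0.996), near the 0.75 of Ifit3, and reads that fit both genes may be missing from each.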
